A study of Mus musculus with 12 samples.

Results

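Co-stimulatory and checkpoint ligands are cell-surface proteins with which a cell tells a T cell or B cell to go on or to stop. The 7 genes described here were chosen by symbol: Cd40, Cd80, Cd86, Cd83, Cd274, Pdcd1lg2 and Icosl. They are 7 of the 54532 genes in the table, and all 7 passed the filter on low counts that left 14547 genes for testing. CD80 and CD86 bind CD28, which drives T cell activation, and CTLA-4, which restrains it. PD-L1 (Cd274) and PD-L2 (Pdcd1lg2) engage the inhibitory receptor PD-1, and ICOSL engages ICOS on activated T cells. CD40 is a receptor of the TNF receptor family that answers CD40 ligand on T cells, and CD83 is a marker of mature dendritic cells that stabilises MHC class II and CD86 at the surface. Eosinophils are granulocytes best known for parasite defence and allergy, and they have been described as able to present antigen and to show such ligands after activation.

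The cells were eosinophils from the spleen, sorted as high side scatter and 4get+, from IL-5tg_4get/C57BL/6 mice. All groups therefore share an interleukin-5 transgene, which makes the animals eosinophilic, and the 4get allele, a green fluorescent reporter of the interleukin-4 gene. The cells were cultured for 4 h with an isotype control antibody (rat IgG2a), with 5 µg/mL anti-Siglec-F (an antibody to a sialic acid-binding, inhibitory receptor on eosinophils), with 10 ng/mL recombinant IL-33 (an alarmin cytokine sensed through ST2), or with the antibody and IL-33 together. Each group had 3 libraries of RNA sequencing reads. The labels name no animals or cultures behind these libraries. The p-values therefore rest on library-to-library spread alone, and that spread may be technical.

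Total counts ran from 11686603 to 17137988 per library. All 10 eosinophil markers on a fixed list were detected in every library, with summed levels of 4787 to 14183 CPM (a gene's counts relative to the library total, scaled between libraries by TMM). In the combined group, libraries 2 and 3 lay apart from the rest, with 15555 and 29990 genes of at least 1 count against 19138 to 24485 in the other libraries. Within groups, log2 CPM had a median SD of 0.157 for isotype, 0.179 for anti-Siglec-F, 0.213 for IL-33 and 0.337 for the combined group. These are bulk samples, in which fewer cells of a type and less RNA per cell cannot be told apart.

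In the isotype group, after 4 h of culture with the control antibody, 4 of the 7 transcripts lay well above the other 3 in level. Per kilobase of gene length, the isotype means were 28.2 ± 1.70 CPM per kilobase for Icosl, 26.9 ± 9.31 for Cd83, 25.5 ± 1.22 for Cd274 and 21.8 ± 1.74 for Cd80 (SD, n = 3 for each). Cd86 followed at 3.65 ± 0.488, Cd40 at 1.83 ± 0.654 and Pdcd1lg2 at 1.46 ± 0.235 (SD, n = 3). The library ranges of Icosl and Cd83, of Cd83 and Cd274, and of Cd40 and Pdcd1lg2 overlapped, so the order within these pairs is not resolved. The ranges of Cd274 and Cd80 did not overlap, nor did those of Cd80 and Cd86, whose means lay 5.97-fold apart. Among all tested genes per kilobase in the isotype group, Icosl stood at percentile 87.9, Cd86 at 49.3, Cd40 at 36.1 and Pdcd1lg2 at 31.9.

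With IL-33 the order of levels differed at the top. Cd274 led at 62.7 ± 14.5 CPM per kilobase (SD, n = 3) in the IL-33 group, above Cd80 without overlap. In the combined group Cd274 had the highest mean at 68.2 ± 28.0 (SD, n = 3), but its libraries overlapped with those of Cd80 at 44.0 ± 12.1, so their order is not resolved. Pdcd1lg2, last in the isotype group, took the fifth place in the combined group at 10.2 ± 3.87 CPM per kilobase (SD, n = 3), above Cd86 at 3.85 and Cd40 at 2.69.

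**Figure D1:**
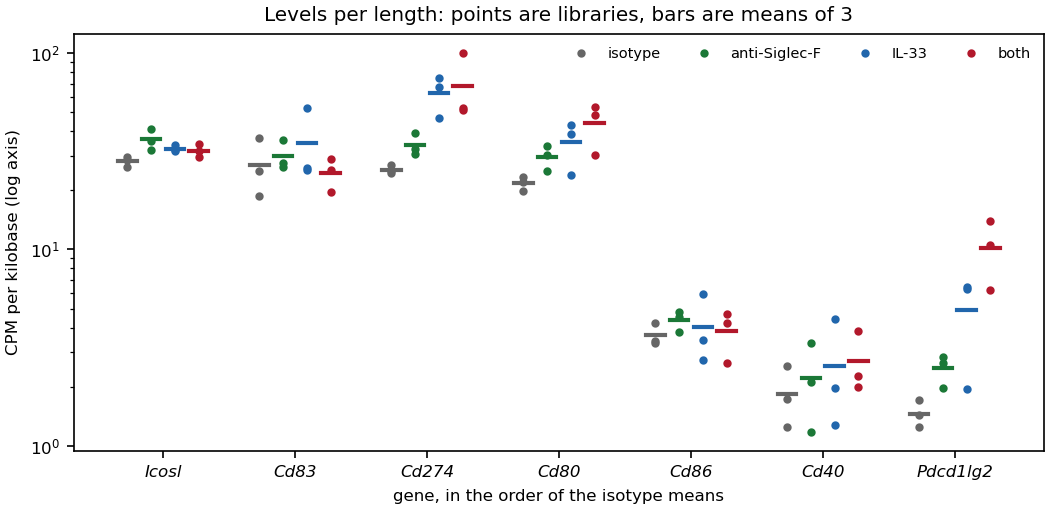
Levels per length of the 7 genes on a logarithmic axis (CPM per kilobase), with genes in the order of their isotype means; each point is a library, colours are the 4 groups and bars are means of 3 libraries. Icosl, Cd83, Cd274 and Cd80 lie above 15 CPM per kilobase in every library, while Cd86, Cd40 and Pdcd1lg2 stay below that in every library.

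The comparison of IL-33 with isotype asked which of these transcripts the cytokine changed by itself. Cd274 and Pdcd1lg2, the ligands of PD-1, were called higher, and no gene of the 7 was called lower. A call means an adjusted p under 0.05 from edgeR's quasi-likelihood test on the counts, with all 12 libraries in 1 fit and Benjamini-Hochberg adjustment over the 14547 genes. Over all tested genes 2.21% were called in this comparison, 1.46% higher and 0.749% lower. The median log2 fold change was 0.47 over the 7 genes and -0.01 over all tested genes. The libraries of 4 of the 7 genes (Cd274, Pdcd1lg2, Cd80 and Icosl) lay wholly above the isotype libraries, against 11% of all tested genes.

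Cd274 (ENSMUSG00000016496, mm10 chromosome 19, 29367455 to 29388095, plus strand) encodes PD-L1. Its isotype libraries held 88.9, 97.5 and 91.2 CPM and its IL-33 libraries 269.8, 243 and 168 CPM. The libraries of both groups did not overlap, and the lowest IL-33 library was the third. The mean went from 92.5 ± 4.43 to 227 ± 52.6 CPM (SD, n = 3), a rise of 2.46-fold (log2 fold change 1.30, SE 0.249, adjusted p 0.0143, edgeR). The combined group held 364, 186 and 191 CPM, with library 1 far above the other two. Its rise over isotype was 1.42 on the log2 scale (SE 0.250, edgeR adjusted p 0.00345), and 2.03 when combined libraries 2 and 3 were left out. That fit holds combined library 1 alone, the highest of its group, and assumes that it varies like the libraries of the other groups. Annotated exons of Cd274 overlap an antisense gene, AC119228.1, by 511 bases. The strand setting of the counting is not given in the sources used here, so reads of these 511 bases cannot be assigned to either strand.

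Pdcd1lg2 (ENSMUSG00000016498, mm10 chromosome 19, 29410919 to 29471157, plus strand) encodes PD-L2 and begins 22823 bases after the end of Cd274, with no protein-coding gene between them. Its isotype libraries held 2.35, 2.81 and 2.04 CPM, from counts of 36, 38 and 26. The IL-33 libraries held 10.6, 10.3 and 3.21 CPM and the combined libraries 17.3, 10.2 and 22.9 CPM. All libraries with IL-33 lay above all isotype libraries, but the third IL-33 library, at 46 counts, came close to them. The rise with IL-33 was 3.35-fold (log2 fold change 1.74, SE 0.424, adjusted p 0.0498, edgeR). With both stimuli the rise over isotype was 6.99-fold (log2 fold change 2.80, SE 0.430, adjusted p 0.00151, edgeR), to 16.8 ± 6.37 CPM (SD, n = 3). With combined library 1 as the only one of its group, the value was 2.90 on the log2 scale.

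The third IL-33 library was also the lowest of its group for Il6, an inflammatory cytokine gene, at 79.8 CPM against 330.3 and 216 CPM in the others. Its part in the values of Cd274 and Pdcd1lg2 was not tested. Without this library the fitted changes were 1.51 for Cd274 (adjusted p 0.0048) and 2.16 for Pdcd1lg2 (adjusted p 0.00242) on the log2 scale, and Cd80 was called as well at 0.94 (adjusted p 0.0310). Cd274 was called in 2 of the 6 fits that left out a library. It had an adjusted p of 0.0869 without IL-33 library 1 and of 0.0752, 0.0622 and 0.0770 without isotype libraries 1, 2 and 3. Pdcd1lg2 was called in 1 of the 6, and its adjusted p was 0.177, 0.133 and 0.201 without isotype libraries 1, 2 and 3. It was 0.232 and 0.169 without IL-33 libraries 1 and 2, and 0.0736 with libraries paired by number. In all 6 of these fits both genes stayed higher, at 1.15 to 1.51 for Cd274 and 1.48 to 2.16 for Pdcd1lg2.

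**Figure D2:**
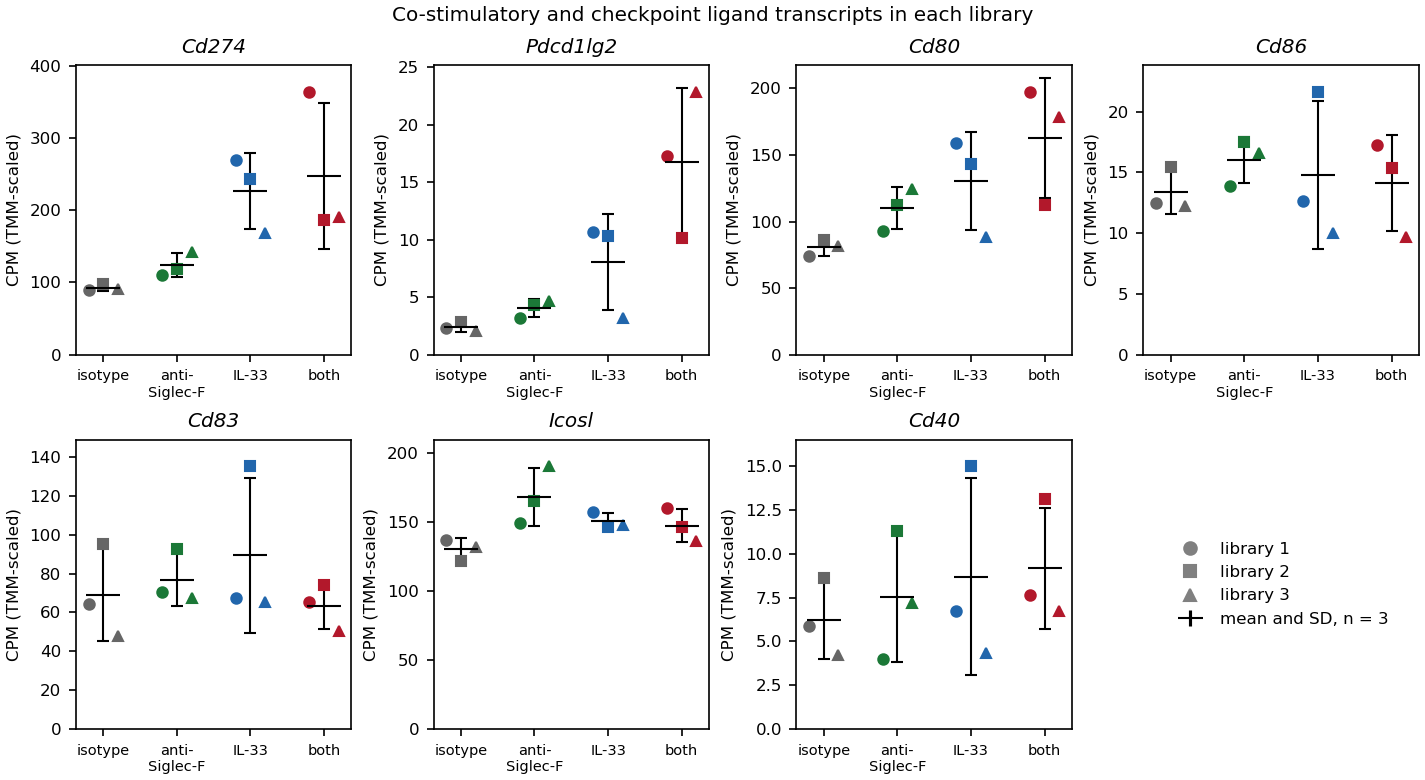
CPM of the 7 genes in each of the 12 libraries (linear axes from 0), with 1 panel per gene; symbols mark the library number, colours the 4 groups, horizontal bars the mean and vertical bars the SD (n = 3). All IL-33 and combined libraries of Cd274 and Pdcd1lg2 lie above all isotype libraries, whereas the groups of Cd86, Cd83 and Cd40 overlap.

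The ratio between both PD-1 ligand transcripts differed between the isotype and combined groups, while the IL-33 ratios spanned the isotype ones. Per kilobase, Cd274 exceeded Pdcd1lg2 by 17.2-fold, 15.8-fold and 20.3-fold in the isotype libraries, and by 9.56-fold, 8.30-fold and 3.80-fold in the combined libraries. With IL-33 alone the ratios were 11.5, 10.7 and 23.8, so the third library again lay apart from the others. The isotype and combined ratios did not overlap, and the anti-Siglec-F ratios of 15.6, 12.4 and 13.9 lay below all isotype ratios and above all combined ones. These ratios were not tested. They rest on Pdcd1lg2 counts of 26 to 38 per isotype library and 45 to 70 per antibody library. The deposited length of Pdcd1lg2 is 1645 bases, while its exons in the GENCODE annotation cover 1961 bases. The size of these ratios, and its levels per kilobase, therefore depend on the gene model.

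Sequence of 250 bases before a start site was available from RefSeq (GRCm38.p6) for 4 of the 7 genes: Cd274, Pdcd1lg2, Cd80 and Icosl. Each window was searched on both strands for the kB consensus bound by NF-kB, for the AP-1 site TGANTCA, for the GAS site TTCNNNGAA of STAT factors and for the element bound by interferon regulatory factors (IRF). Over 32851 promoters of this length, 3.90% held the kB consensus, 6.75% the AP-1 site, 7.02% the GAS site and 2.98% the interferon element. The windows of the called genes Pdcd1lg2 (chr19:29410669-29410918, plus strand) and Cd80 (chr16:38458683-38458932, plus strand) each held 1 match and are shown with it in capitals. The Pdcd1lg2 match is a kB consensus that begins 244 bases before the start site, and the Cd80 match is an AP-1 site that begins 42 bases before its start site. The RefSeq start site of Cd80 lies 3372 bases inside the gene as the authors' table maps it, so this window is not upstream of the outermost start.
Pdcd1lg2: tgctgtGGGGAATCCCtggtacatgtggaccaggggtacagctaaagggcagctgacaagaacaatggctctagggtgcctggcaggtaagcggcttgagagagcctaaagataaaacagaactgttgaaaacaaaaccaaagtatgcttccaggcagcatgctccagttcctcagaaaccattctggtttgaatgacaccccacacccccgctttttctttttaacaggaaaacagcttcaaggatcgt
Cd80: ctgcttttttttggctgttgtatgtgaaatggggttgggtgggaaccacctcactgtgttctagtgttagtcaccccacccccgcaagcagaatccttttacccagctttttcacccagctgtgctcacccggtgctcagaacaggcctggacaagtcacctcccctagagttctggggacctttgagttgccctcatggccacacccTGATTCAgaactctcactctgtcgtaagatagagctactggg
The windows of Cd274 and Icosl held none of these letters. A match describes the sequence and not a bound site.

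Cd80 (ENSMUSG00000075122, mm10 chromosome 16, 38455561 to 38496335, plus strand) and Cd86 (ENSMUSG00000022901, chromosome 16, 36603869 to 36666081, minus strand) encode the ligands shared by CD28 and CTLA-4, and only Cd80 was called in any comparison. Cd80 held 73.8, 86.5 and 81.9 CPM in the isotype libraries, 159, 143 and 88.7 CPM with IL-33, and 198, 112 and 179 CPM with both. Every library with IL-33 lay above every isotype library, the third IL-33 library by little. Cd80 rose 2.02-fold with both stimuli against isotype (log2 fold change 1.01, SE 0.236, adjusted p 0.0168, edgeR). With combined library 1 alone, the highest of its group, the value was 1.34. For IL-33 alone the difference of 0.69 (95% interval 0.19 to 1.20) was not called by edgeR, with an adjusted p of 0.172. It was called by voom (0.81, adjusted p 0.00469) and by edgeR with no expression filter (0.69, adjusted p 0.0326), so 2 of 10 alternatives called it. Of these 10, the fit on reads recovered from the normalized values repeats the main fit. The rise with both stimuli had an adjusted p of 0.0797, 0.0640 and 0.0509 without isotype library 1, isotype library 3 and combined library 3.

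Cd86 was not called in any comparison. Its isotype libraries held 12.5, 15.4 and 12.2 CPM, its IL-33 libraries 12.7, 21.6 and 9.98 CPM and its combined libraries 17.2, 15.4 and 9.67 CPM. The groups overlapped, and the second IL-33 library was the highest of the 12. The fitted difference was 0.14 (95% interval -0.47 to 0.75, edgeR adjusted p 0.918) for IL-33 and 0.07 (adjusted p 0.896) for both stimuli. Per kilobase, Cd80 exceeded Cd86 by 5.85-fold, 5.54-fold and 6.62-fold in the isotype libraries and by 11.3-fold, 7.20-fold and 18.3-fold in the combined libraries, without overlap. That difference in ratio was not tested.

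Cd83 and Cd40, the markers of mature antigen-presenting cells, showed no called difference, and both were highest in library 2 of every group. Cd83 (ENSMUSG00000015396, chromosome 13, 43784775 to 43803132, plus strand) held 64.4, 95.2 and 48.0 CPM with isotype, 67.3, 136 and 65.4 CPM with IL-33 and 65.5, 74.2 and 50.3 CPM with both. The second library was the highest of each group, and the groups overlapped. The fitted difference was 0.37 (95% interval -0.27 to 1.00, edgeR adjusted p 0.708) for IL-33 and -0.13 (adjusted p 0.823) for both stimuli.

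Cd40 (ENSMUSG00000017652, chromosome 2, 165055627 to 165072948, plus strand) held 5.87, 8.64 and 4.23 CPM with isotype, 6.73, 15.0 and 4.33 CPM with IL-33 and 7.67, 13.1 and 6.74 CPM with both. The second library was again the highest of each group, from counts of 54 to 191 over the 12 libraries. Its fitted difference was 0.47 (95% interval -0.54 to 1.49, edgeR adjusted p 0.785) for IL-33 and 0.55 (adjusted p 0.495) for both stimuli.

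B cells and plasma cells of the spleen express Cd40, Cd83 and Cd86. The sum of their markers was also highest in library 2 of each group. The 10 markers of B and plasma cells were all detected in every library, and their summed level was 773, 1125 and 722 CPM in the isotype libraries, 684, 874 and 717 with anti-Siglec-F, 613, 1241 and 685 with IL-33 and 604, 876 and 569 with both. Library 2 was the highest in 4 of 4 groups for this sum, for Cd40 and for Cd83, and in 3 of 4 groups for Cd86. Of the rest of the 7 genes, that library was the highest in 0 of 4 groups for Icosl and in 1 of 4 each for Cd80, Cd274 and Pdcd1lg2. Of the B and plasma cell markers, 0 of 10 were called in either direction against isotype by edgeR or DESeq2 for IL-33 or for both stimuli, and 0 and 2 of them had an unadjusted p under 0.05. Without the second IL-33 library, the IL-33 differences of Cd40, Cd86 and Cd83 were -0.15, -0.21 and -0.036, so their sign turned. The summed level of 10 T and NK cell markers was highest in library 2 in 3 of 4 groups, and reached 98.5 CPM in the second IL-33 library, against 35.8 and 23.9 CPM in the others of that group. The part of B, T or NK cell RNA in these 3 transcripts was not tested.

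**Figure D3:**
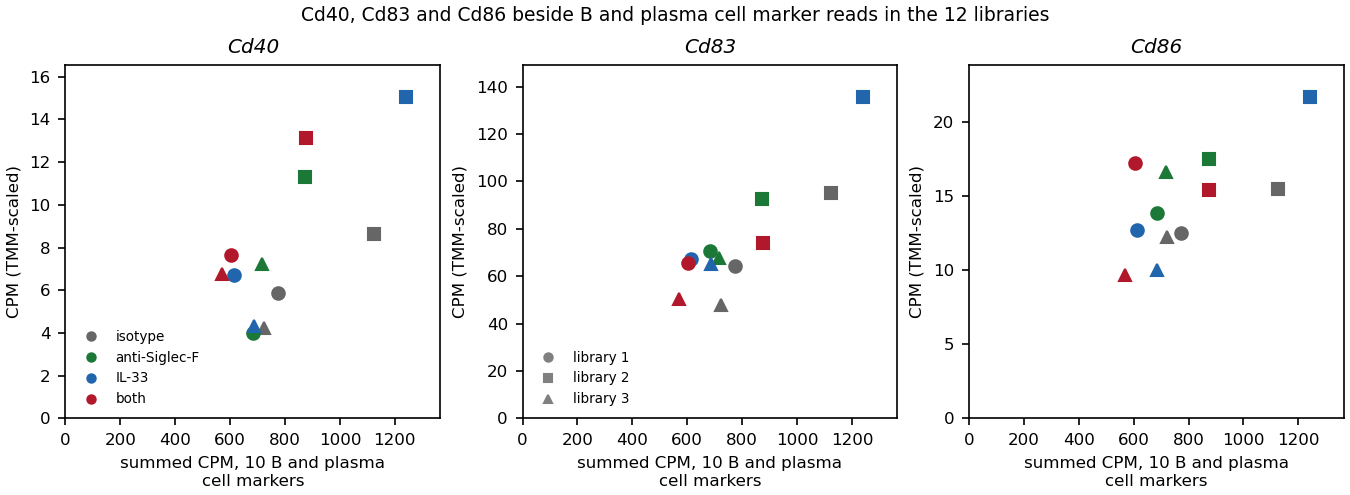
CPM of Cd40, Cd83 and Cd86 (vertical axes, from 0) against the summed CPM of 10 B and plasma cell markers (horizontal axes) in the 12 libraries; colours are groups and symbols library numbers. The squares, library 2 of each group, lie at 874 to 1241 CPM of marker reads, to the right of all other libraries of 569 to 773 CPM.

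For the genes that were called, the second library was the highest in 1 of 4 groups each for Cd274, Pdcd1lg2 and Cd80. Without the 4 libraries numbered 2, both stimuli still gave 1.64 for Cd274 (edgeR adjusted p 0.0374), 3.20 for Pdcd1lg2 (adjusted p 0.0174) and 1.29 for Cd80 (adjusted p 0.0466) against isotype. IL-33 alone then gave 1.29 for Cd274 and 1.67 for Pdcd1lg2, with adjusted p-values of 0.234 and 0.370. Of 13 markers of monocytes and macrophages, 3 were called higher and 0 lower for IL-33 (list median -0.14), and 3 higher and 1 lower for both stimuli against isotype (median 0.61). The 3 were Adgre1, Csf1r and Spic in both comparisons, and Ccr2 was the lower one. Over all tested genes 2.21% were called for IL-33 and 9.88% for both stimuli. The summed level of the list was 1646 to 1903 CPM with isotype, 2079 to 2428 with anti-Siglec-F, 2579 to 3525 with IL-33 and 3292 to 4193 with both. It was mostly Adgre1 (1031 to 2671 CPM) and Csf1r (407 to 1066 CPM), so this sum follows both genes. Its relation to macrophage content was not tested. Spic, a transcription factor of red pulp macrophages of the spleen, went from 0.549 to 1.33 CPM in the isotype libraries to 4.12 to 21.7 with IL-33 and 5.30 to 26.2 with both. Vcam1, which was not called, had 10.8 to 39.0, 35.9 to 121.5 and 42.1 to 132 CPM. The macrophage genes C1qa, C1qb and C1qc did not exceed 3.34 CPM in any library. Of 10 dendritic cell markers, 7 were tested and 1, Batf3, was called higher for IL-33 and for both stimuli, from 15.1 to 17.9 CPM with isotype to 28.1 to 52.4 with IL-33 and 59.3 to 118 with both. The dendritic cell genes Xcr1, Clec9a and Cd209a did not exceed 1.09 CPM in any library and were all at 0 in combined library 2, and the 10-gene dendritic sum of 357.5 to 820 CPM was mostly Itgax. The summed level of 8 neutrophil markers ran from 280 CPM in IL-33 library 3 to 1468 CPM in anti-Siglec-F library 1. That of 7 basophil and mast cell markers ran from 145 CPM in isotype library 3 to 250 CPM in combined library 3. Against isotype, edgeR called 0 of either list for IL-33 or for both stimuli. Of the 7, voom called 3 for IL-33 and DESeq2 called 1 for both stimuli. For the 10 eosinophil markers the list medians against isotype were -0.40 for IL-33 and 0.14 for both stimuli, with 0 called by edgeR. Among these 10, voom called 3 for IL-33 and DESeq2 called 1 for both stimuli. The part of any of these cells in the rise of Cd274, Pdcd1lg2 and Cd80 was not tested.

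Icosl (ENSMUSG00000000732, chromosome 10, 78069302 to 78083913, plus strand) encodes the ligand of ICOS and had the narrowest range of the 7 over the 12 libraries, relative to its level. Its libraries held 137, 122 and 132 CPM with isotype, 149, 165 and 191 CPM with anti-Siglec-F, 157, 146 and 148 CPM with IL-33 and 160, 146 and 136 CPM with both. The antibody and IL-33 libraries lay wholly above the isotype libraries, by a narrow margin, and the combined libraries overlapped with them. No difference was called. The fitted difference was 0.37 (95% interval 0.08 to 0.66) with the antibody, 0.21 (-0.08 to 0.50) with IL-33 and 0.18 with both, with edgeR adjusted p-values of 1, 0.599 and 0.435.

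Anti-Siglec-F alone was compared with isotype to ask what ligation of the receptor did without IL-33. None of the 7 genes was called by edgeR, and 0 of all tested genes were (0%). At an unadjusted p under 0.05 there were 1 of the 7, Icosl, and 370 of all genes, while DESeq2 called 12 genes in all and none of the 7. All 7 fitted differences were positive, with a median of 0.37 against -0.01 over all tested genes. The antibody libraries of 4 genes lay wholly above the isotype libraries, against 6.73% of all tested genes. For Cd274 they held 111, 118 and 142 CPM (fitted difference 0.42, 95% interval -0.11 to 0.95), for Pdcd1lg2 3.22, 4.34 and 4.67 CPM (0.76, -0.16 to 1.68) and for Cd80 93.1, 113 and 125 CPM (0.45, -0.05 to 0.95). For the same contrast Cd86 held 13.9, 17.5 and 16.6 CPM, Cd83 70.7, 92.4 and 67.5 CPM and Cd40 4.01, 11.3 and 7.21 CPM, all overlapping with isotype.

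Both stimuli against isotype called 3 of the 7 genes, Pdcd1lg2, Cd274 and Cd80, all higher, where 9.88% of all tested genes were called, 5.47% higher and 4.41% lower. Libraries of the same 3 genes lay wholly above isotype, against 12% of all tested genes. The median over the 7 genes was 0.55, against -0.05 over all tested genes. In the 6 fits that left out 1 library of either group, Cd274 and Pdcd1lg2 were called each time, with adjusted p-values of up to 0.0237 and 0.0126.

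Both stimuli against the antibody alone asked what IL-33 added to ligation. It called Pdcd1lg2 higher by 2.04 on the log2 scale (SE 0.412, edgeR adjusted p 0.0163) and Cd274 by 1.00 (SE 0.248, adjusted p 0.0397), where 4.42% of all tested genes were called, 2.7% higher and 1.72% lower. The combined libraries of both genes lay wholly above the antibody libraries, against 10% of all tested genes. Cd80 was not called at 0.56 (95% interval 0.06 to 1.07, adjusted p 0.170). The Cd274 call was lost without any 1 of the 3 antibody libraries, with adjusted p-values of 0.152, 0.154 and 0.0808. That of Pdcd1lg2 was lost without any of them as well (0.0885, 0.0743 and 0.0548) and without combined library 3 (0.0672).

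Both stimuli were also set against IL-33 alone, to ask what the antibody did beside the cytokine. None of the 7 genes was called by edgeR, as was 0% of all tested genes. DESeq2 called none of the 7 and 446 genes in all, and at an unadjusted p under 0.05 there were 1 of the 7 and 2526 of all genes. That 1 gene was Pdcd1lg2, at 1.06 (95% interval 0.21 to 1.91, unadjusted p 0.0180, adjusted p 0.222, edgeR). Its combined libraries overlapped with the IL-33 libraries, since the second of each group held 10.2 and 10.3 CPM, and 0 of the 7 genes lay wholly above IL-33, against 6.98% of all tested genes. For Cd274 the difference was 0.12 (95% interval -0.40 to 0.65).

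The interaction subtracts the antibody effect without IL-33 from that in its presence. It was called for none of the 7 genes and for 0% of all tested genes by edgeR. None of the 7 and 1150 of all genes had an unadjusted p under 0.05, and DESeq2 called 1 gene, none of the 7. The estimates were 0.30 (95% interval -0.95 to 1.55) for Pdcd1lg2, -0.30 (-1.05 to 0.45) for Cd274 and -0.40 (-0.81 to 0.01) for Icosl. The 5 comparisons of groups share libraries, so their values are set side by side here and were not correlated.

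**Figure D4:**
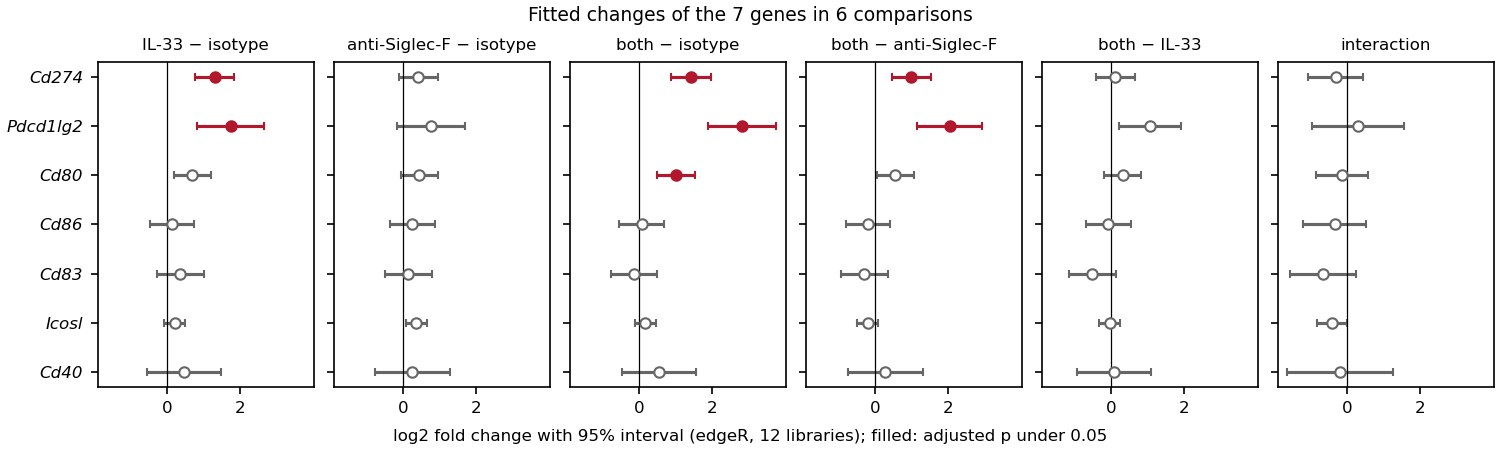
Fitted log2 fold changes of the 7 genes with 95% intervals in the 6 comparisons (edgeR, 12 libraries in 1 fit); filled red points are called at an adjusted p under 0.05 and open points are not. Filled points mark Cd274 and Pdcd1lg2 in the panels IL-33 − isotype, both − isotype and both − anti-Siglec-F, and Cd80 in the panel both − isotype.

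Genes of the same pathway were described by lists. CD40 signals through TRAF adaptors to NF-kB, and of 13 genes of CD40 signalling, all tested, 6 rose and 0 fell with IL-33, at a list median of 0.55, where 2.21% of all tested genes were called. With both stimuli 7 rose and 0 fell against isotype (median 0.54, beside 9.88% of all tested genes), and 5 rose and 0 fell against the antibody alone (median 0.53, beside 4.42%). With the antibody alone against isotype, and with both against IL-33, edgeR called 0 of the 13, as did DESeq2 and voom, and 0 and 1 of them had an unadjusted p under 0.05. The NF-kB subunit genes Relb and Nfkb2 and the adaptor gene Traf1 changed most. Relb went from 49.3 ± 4.97 to 199 ± 28.4 CPM with IL-33 (SD, n = 3; log2 fold change 2.01, edgeR adjusted p 0.000104), Nfkb2 from 103 ± 3.70 to 446 ± 93.7 CPM (2.12, adjusted p 0.000196) and Traf1 from 14.6 ± 1.69 to 82.7 ± 40.2 CPM (2.50, adjusted p 0.00574). These 3 were called in all 6 fits that left out a library in this comparison. Cd40 itself was not called in any comparison. The list holds NF-kB subunit genes, which are not particular to CD40, and the part of CD40 in these changes was not tested.

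Of 15 other co-stimulatory or inhibitory ligands, 11 were tested, and 2 rose and 0 fell with IL-33 and with both stimuli against isotype (medians 0.69 and 0.34). Over all tested genes 2.21% and 9.88% were called in these 2 comparisons. Against the antibody alone, both stimuli raised 1 and lowered 0 of the 11 (median 0.46), beside 4.42% of all tested genes. Icam1, the adhesion ligand of LFA-1 on T cells, went from 43.4 ± 4.80 to 148 ± 50.0 CPM with IL-33 (SD, n = 3; log2 fold change 1.77, edgeR adjusted p 0.00171). It rose by 1.55 with both stimuli against isotype (adjusted p 0.00188). Ceacam1, an inhibitory adhesion molecule, rose by 1.31 with IL-33 (adjusted p 0.0429) and by 1.70 with both (adjusted p 0.00439), and the first of these calls held in 1 of the 6 fits that left out a library. Of 6 other B7 and butyrophilin genes, only Cd276 and Vsir were tested. Cd276 (B7-H3) fell by 1.83 on the log2 scale with both stimuli (SE 0.502, adjusted p 0.0357), from 3.02 ± 0.249 to 0.839 ± 0.437 CPM (SD, n = 3), and that call held in 1 of 6 such fits and not with voom (adjusted p 0.0995). Vsir, which encodes the checkpoint molecule VISTA, had 1509 ± 160 CPM with isotype and 1214 ± 190 CPM with IL-33 (SD, n = 3). It was not called by edgeR or DESeq2 in any comparison, and voom called it lower with IL-33 (log2 fold change -0.39, adjusted p 0.0401).

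The genes of peptide presentation held no call. Of 12 MHC class II genes, all tested, edgeR called 0 in each of the 6 comparisons, with medians of 0.09 for IL-33 and -0.08 for both stimuli against isotype. At most 1 of the 12 had an unadjusted p under 0.05 in any comparison, and DESeq2 and voom called 0. Of 15 regulators of the transcription or turnover of PD-L1, CD86 and CD83, among them the JAK, STAT and IRF genes, 0 were called by edgeR in each of the 6, with medians of -0.06 and -0.09. For both stimuli against isotype, 3 of them had an unadjusted p under 0.05, DESeq2 called 0 and voom called 2. Of the 5 partner receptors on T cells, 4 were tested, and 0 were called by edgeR, DESeq2 or voom or had an unadjusted p under 0.05 in any comparison. Pdcd1, which encodes PD-1, had 3.85 ± 1.54 CPM with isotype, and Cd28 had 4.19 ± 1.53 CPM (SD, n = 3).

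**Figure D5:**
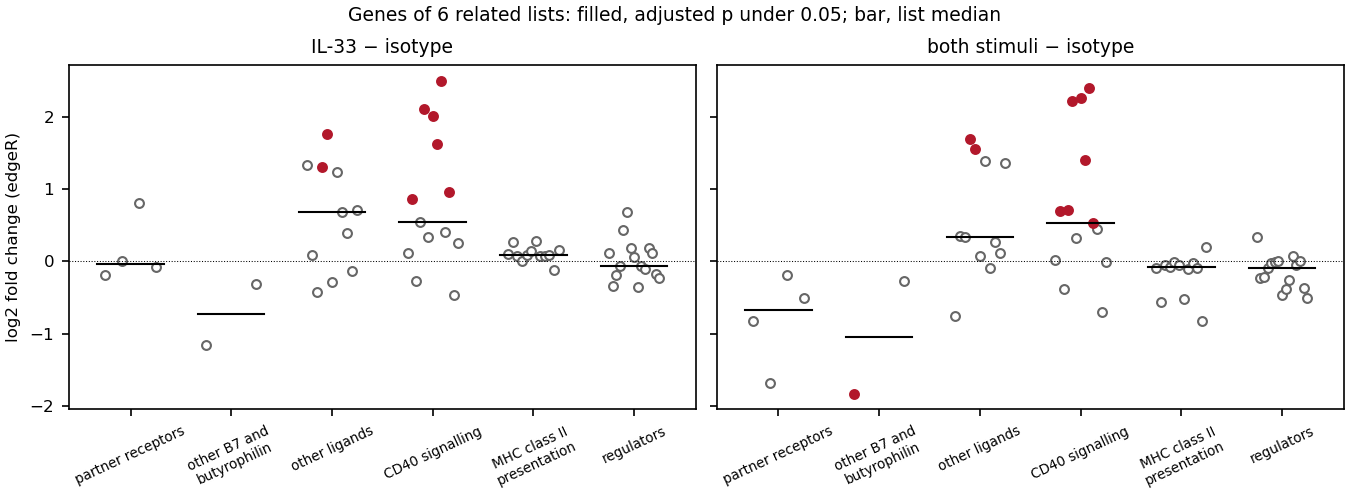
Fitted log2 fold changes of the tested genes of 6 related lists (points; filled red, adjusted p under 0.05; bars, list medians) for IL-33 against isotype and for both stimuli against isotype. The CD40 signalling list holds 6 and 7 filled points, all above 0, while the MHC class II and regulator lists hold none.

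The pattern of each gene over the 12 libraries was set beside that of 8647 other genes, as the root mean square difference of centred log2 CPM. Cd80 lay closest to Mafg (0.128) and Atp6v0c (0.149), where the median over the 8647 genes was 0.528. Icosl lay closest to Ptk2b (0.0926) and Ptbp1 (0.0979), with a median of 0.331. Cd274 lay closest to Zfp719 (0.206) and Ell2 (0.208), with a median of 0.699, and Pdcd1lg2 to Fth1 (0.265) and Slc11a1 (0.290), with a median of 1.14. Cd83 lay closest to Pkib (0.155) and Cxcr5 (0.161), Cd86 to Pkib (0.200) and mt-Co1 (0.204), and Cd40 to Bzw2 (0.280) and Plekho1 (0.316). Among the 7 genes themselves, Cd86 and Cd83 were the closest pair at 0.246 and Cd83 and Pdcd1lg2 the farthest at 1.16, while Cd274 and its neighbour Pdcd1lg2 lay 0.643 apart and Cd274 and Cd80 0.323. Within a library, all genes share its depth, scaling and culture, and the values are descriptions.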

How the data were processed

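RNA of 12 eosinophil libraries, 3 in each of 4 groups, was sequenced. The authors deposited whole-number counts per gene and gene lengths in bases, and also a table of normalized counts, in which the signal of each library is its counts over a single size factor (per the file headers and the values). Per the submitters' processing notes, the genome was mm10, and STAR 2.6.1d, featureCounts 1.5.0-p3, DESeq2, fastp and FastQC 0.11.8 are named. The annotation release is not given in the sources used here, nor is the strand setting. Dividing the normalized values by each library's step gave whole reads for 100% of values within a tolerance of 1e-06, equal to the raw counts, and the count test on them called 322 genes, as the raw counts did, for IL-33 against isotype.

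Counts were tested by quasi-likelihood in edgeR 4.0.16 (R 4.3.3), scaled by TMM, filtered by filterByExpr on group, with all 12 libraries in 1 fit. Fold changes are given with their SE or 95% interval from that fit. CPM were computed from the deposited counts with TMM factors, and divided by the deposited gene length to compare levels between genes. Alternatives were DESeq2 1.42.0, limma 3.58.1 (voom with quality weights), RLE scaling, other filters, a replicate block, fewer groups or libraries and each library left out. The settings with the recovered reads and without the libraries numbered 2 were chosen after seeing the data. The 7 genes and all lists were chosen with earlier results of these data known. Named genes are the 7, the 2 genes of closest pattern to each (from genes of at least 5 CPM on average), up to 3 called genes of each list with the largest change, and list genes without a call given with their values; Il6 was added after its values were seen. The scripts were tested on simulated data. The replicate numbers were checked for pairing: deviations from group means correlated at 0.24, 0.24 and 0.17 for IL-33 against isotype, all over 0.1. In each other comparison at least 1 correlation was under 0.1. The labels do not say whether equal numbers share an animal or culture, so pairing is not settled. The main fit held no replicate block, which was run as an alternative.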

Additional observations from a re-analysis of the deposited data

How the results depend on the processing

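The number of the 7 genes called for IL-33 against isotype (2) was 1 with the replicate block, which pairs libraries by number, 1 with only the groups compared and 0 without the 4 libraries numbered 2. It was 3 with voom and with no expression filter, where Cd80 was called too. For both stimuli against the antibody (2) it was 1 with voom, 1 with only the groups compared and 0 without the libraries numbered 2. For both against IL-33 (0) it was 1 with no expression filter, for Pdcd1lg2. Leaving out single libraries gave 0 to 3 for IL-33 against isotype, 2 to 3 for both against isotype, 0 to 2 for both against the antibody and 0 in the other comparisons. The block changed no other call of the 7 genes.

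The genes called in all were 322 for IL-33 against isotype, 1437 for both against isotype and 643 for both against the antibody. With DESeq2 they were 731, 2221 and 1486, and with no expression filter 683, 1978 and 1600. With voom they were 2089, 1425 and 424, and with only the groups compared 463, 738 and 242. Without combined libraries 2 and 3, which leaves 1 library in that group with the spread taken from the other groups, they were 688, 651 and 220, and without the libraries numbered 2 they were 51, 502 and 100. For the antibody against isotype (0) they were 12 with DESeq2, 70 with no filter, 10 with voom, 20 with only the groups compared and 1 without combined libraries 2 and 3. For both against IL-33 (0) they were 446 with DESeq2 and 786 with no filter, and for the interaction (0) 1 and 86. Leaving out single libraries gave 116 to 488 for IL-33 against isotype, 515 to 2916 for both against isotype, 124 to 2839 for both against the antibody, 0 to 2116 for both against IL-33 and 0 to 4 for the interaction. The highest count was without IL-33 library 3 in the first of these and without combined library 1 in the others.

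No called difference of the 7 genes changed sign in any alternative. Signs that turned belong to differences that were not called, and the cause was not tested. With voom, Cd83 was 0.17 for both against isotype, Cd86 0.036 and Cd274 -0.15 for both against IL-33, and Cd40 0.14 for the interaction. Without combined libraries 2 and 3, Cd86 was 0.16 for both against the antibody. For both against IL-33, Cd40 was then -0.13, Cd86 0.27 and Icosl 0.12, and for the interaction Cd80 was 0.19, Cd86 0.010 and Cd274 0.29. Without the libraries numbered 2, Cd86 was -0.11 for IL-33 against isotype, Cd83 0.059 for both against isotype, Cd86 0.25 for both against IL-33, and Cd40 0.24 and Cd80 0.13 for the interaction.

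Across fits that left out 1 library, signs turned in 17 such differences. For IL-33 against isotype, Cd40 ran from -0.15 to 0.83, Cd86 from -0.21 to 0.39 and Cd83 from -0.036 to 0.69. For the antibody against isotype, Cd40 ran from -0.14 to 0.58 and Cd83 from -0.037 to 0.45. For both against isotype, Cd86 ran from -0.11 to 0.28 and Cd83 from -0.30 to 0.19. For both against the antibody, Cd40 ran from -0.061 to 0.72 and Cd86 from -0.37 to 0.024. For both against IL-33, Cd40 ran from -0.27 to 0.73, Cd86 from -0.30 to 0.32, Cd274 from -0.28 to 0.29 and Icosl from -0.10 to 0.019. For the interaction, Cd40 ran from -0.53 to 0.46, Cd80 from -0.37 to 0.077, Cd86 from -0.56 to 0.048 and Pdcd1lg2 from -0.11 to 0.55. Counts were lowest for Pdcd1lg2 and Cd40, which limits their precision, with 26 to 336 and 54 to 191 counts per library.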
